A study of Homo sapiens with 6 samples.

Results

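Non-homologous end joining genes were followed in C4-2 cells, a castration-resistant subline of the human prostate cancer line LNCaP. The 8 genes (XRCC5, XRCC6, XRCC4, DCLRE1C, RIF1, TP53BP1, APLF and TDP1) were taken by gene symbol from the annotation of the array, out of 14812 named genes, and each was read by 1 probeset. The 6 arrays formed 3 groups of 2 cultures called biological replicates, all grown in hormone-containing medium; the labels do not say how replicate cultures were separated, so p-values measure the spread between these arrays. Control cells received the vehicle DMSO. NU7441 cells received 1 µM of this inhibitor of the DNA-PKcs kinase for 24 h. Knockdown cells were transiently depleted of DNA-PKcs with a pool of siRNAs against PRKDC, its gene, for 96 h. The protocol also names a control siRNA pool, but the control arrays are labelled by DMSO alone, so in the comparisons with control the loss of DNA-PKcs and the transfection cannot be told apart. The PRKDC transcript was not analysed here, so the depletion rests on the labels.

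End joining is the main way in which human cells rejoin broken DNA outside replication. XRCC5 (Ku80) and XRCC6 (Ku70) form a ring that slides onto a broken end and draws in DNA-PKcs; the complex of these proteins is DNA-PK. DNA-PKcs then enables the nuclease Artemis, encoded by DCLRE1C, to trim ends, while XRCC4 holds the ligase that seals them. TP53BP1 (53BP1) and its effector RIF1 shield ends from resection, the step that commits a break to homologous recombination. APLF is a scaffold that binds Ku, and TDP1 removes blocking groups from 3′ ends. In prostate cancer cells DNA-PKcs is also known as a partner of the androgen receptor in transcription.

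The arrays showed luminal prostate transcripts and were least alike among dim probesets. All 7 measured luminal prostate markers, among them KLK3 and FOLH1, had mean intensities above 100, whereas 0 of 12 basal, stromal, leukocyte, endothelial and neuroendocrine markers did. The array medians were 31.5 and 31.6 for control, 27.6 and 28.4 for knockdown and 24.6 and 26.0 for NU7441, while 95th percentiles were similar, at 289 to 299. The lowest deposited intensity was 16, and fold changes of genes near it are understated if it is an added offset, which was not tested. Within 0.01 of it lay 453 and 444 probesets in control, 974 and 1206 in knockdown and 3800 and 1471 under NU7441. Replicates were closest in the control group, with a median SD over genes of 0.09 on the log2 scale, against 0.14 for knockdown and 0.21 for NU7441. Over the 8 genes these medians were 0.03, 0.10 and 0.30. The number of arrays limits the precision throughout.

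Promoter sequences are shown for 5 of the genes: RIF1, XRCC4, TDP1 and DCLRE1C because their transcripts were lower together under NU7441, and XRCC6 because its transcript kept most of its level. RefSeq windows on build GRCh38.p14 were matched for 7 of the 8 genes; XRCC5 was not among them. Each run is the 250 bases before the annotated start of the gene, 5′ to 3′ on the gene's strand, with matches to the motifs searched in capitals.

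RIF1 (chr2:151409652-151409901, plus strand): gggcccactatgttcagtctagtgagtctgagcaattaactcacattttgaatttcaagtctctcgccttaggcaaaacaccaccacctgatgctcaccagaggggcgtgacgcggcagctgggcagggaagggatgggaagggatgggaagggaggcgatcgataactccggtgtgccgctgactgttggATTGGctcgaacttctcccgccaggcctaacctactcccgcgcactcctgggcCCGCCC

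XRCC4 (chr5:83077297-83077546, plus strand): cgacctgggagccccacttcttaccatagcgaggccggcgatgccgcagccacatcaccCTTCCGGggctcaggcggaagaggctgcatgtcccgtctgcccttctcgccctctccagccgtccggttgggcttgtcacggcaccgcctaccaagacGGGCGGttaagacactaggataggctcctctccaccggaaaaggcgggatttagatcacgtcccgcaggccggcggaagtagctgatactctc

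TDP1 (chr14:89955677-89955926, plus strand): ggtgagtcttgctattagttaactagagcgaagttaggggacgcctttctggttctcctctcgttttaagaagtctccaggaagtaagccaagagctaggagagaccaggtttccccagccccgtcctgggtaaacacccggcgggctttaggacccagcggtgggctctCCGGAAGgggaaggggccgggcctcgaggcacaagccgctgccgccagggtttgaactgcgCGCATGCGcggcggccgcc

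DCLRE1C (chr10:14954097-14954346, minus strand, the downstream of its 2 windows): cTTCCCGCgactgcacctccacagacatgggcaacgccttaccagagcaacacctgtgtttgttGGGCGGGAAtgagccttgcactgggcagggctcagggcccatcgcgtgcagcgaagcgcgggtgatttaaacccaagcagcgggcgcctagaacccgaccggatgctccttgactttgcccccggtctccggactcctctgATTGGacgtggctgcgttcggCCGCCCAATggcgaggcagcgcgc

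XRCC6 (chr22:41621045-41621294, plus strand): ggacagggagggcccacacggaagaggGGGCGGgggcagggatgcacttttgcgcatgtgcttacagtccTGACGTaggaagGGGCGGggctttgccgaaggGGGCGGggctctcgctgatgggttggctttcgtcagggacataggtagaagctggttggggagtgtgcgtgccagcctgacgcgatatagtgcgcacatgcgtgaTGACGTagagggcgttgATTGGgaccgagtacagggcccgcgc

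The 7 genes had 8 windows, as DCLRE1C had 2. The GC box GGGCGG was present on either strand in 7 of the 8, against 42.6% of the 35116 promoter windows of the same length. TDP1 was the gene without it. The CCAAT box was present in 6 of the 8, against 32.0% of windows. It lay 59 bases before the start site in RIF1 and 26 bases before it in XRCC6. The ETS-type motif CCGGAAG was found in XRCC4, TDP1 and TP53BP1, against 8.52% of windows. Of 3 E2F-type motifs, TTGGCGC was in 2.56% and TTCGCGC in 1.85% of windows and in 0 of the 7 genes. TTCCCGC was in 5.52% of windows and in the printed DCLRE1C window alone among the genes, where 1 of its 2 matches overlaps a GC box. The MYC-type E-box CACGTG was in 6.34% of windows and in 0 of the 7 genes. The NRF1-type motif GCATGCG, in 3.39% of windows, matched the TDP1 window on both strands at overlapping positions. The core TGACGT of cAMP-responsive elements, in 7.10% of windows, occurred 2 times in XRCC6 and in no other of these genes. In the same DCLRE1C window a GC box also overlaps a CCAAT box. The AP-1 motif TGANTCA, in 6.57% of windows, and the TATA motif TATAAA, in 10.7%, occurred in the upstream DCLRE1C window, which is not printed. GC content ran from 58.4% to 66.4% in the windows other than that upstream one, at 45.6%, with a median of 58.0% over all windows. These matches describe letters in a window and are not binding sites.

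NU7441 against control asked how the end joining genes respond when the kinase is inhibited. XRCC5, RIF1, DCLRE1C, TDP1 and XRCC4 fell, by between 1.87-fold and 2.69-fold, while XRCC6, TP53BP1 and APLF did not pass the test. The test was limma's moderated fit on log2 intensities with Benjamini-Hochberg adjustment over all genes and a threshold of 0.05. So 5 of 8 genes were lower and 0 higher, against 22.4% of all genes called lower and 10.8% called higher. The median log2 fold change was −0.95 over the 8 genes and −0.23 over all genes, which quantile normalization moved to 0.01, median centring to 0.08 and taking off the lowest intensity to −0.53.

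**Figure D1:**
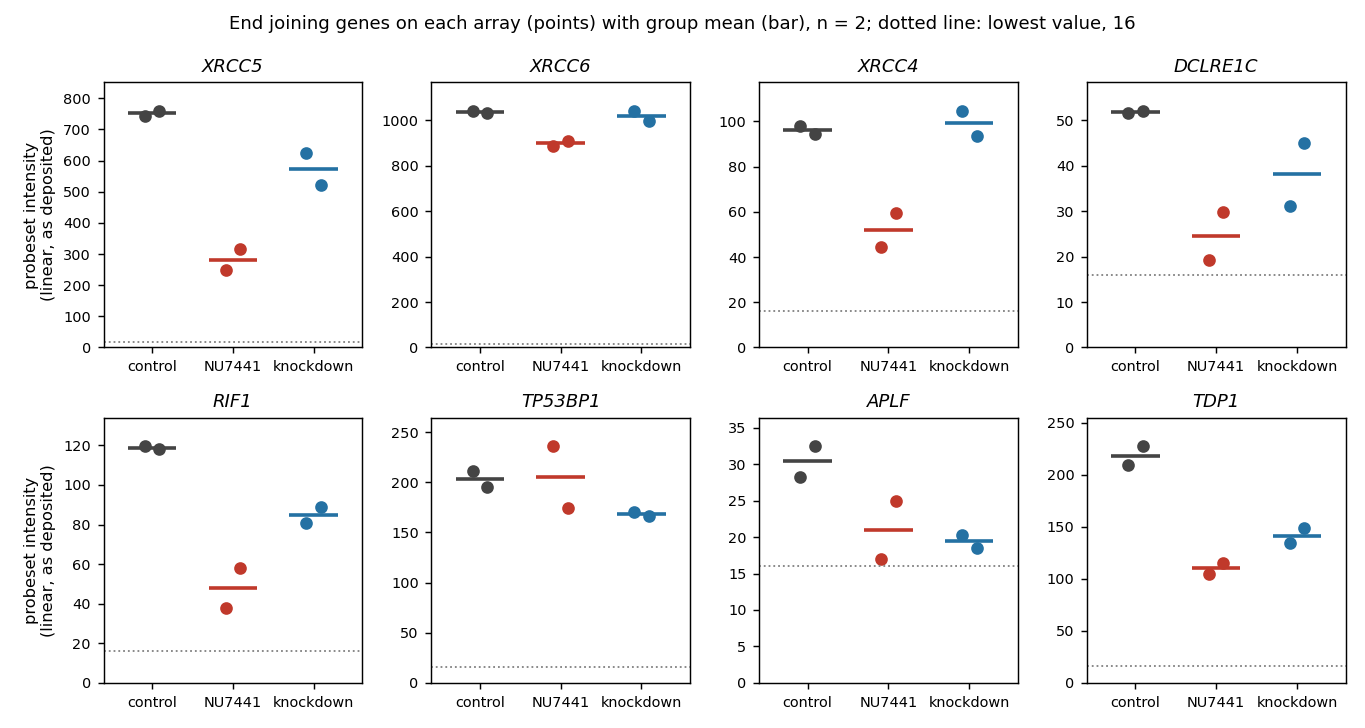
Linear probeset intensity (vertical axis, from 0) of each of the 8 genes on every array, by group, with points for arrays and a bar for the mean of 2. XRCC5 fell from 745 and 760 in control to 249 and 315 under NU7441, whereas XRCC6 stayed between 887 and 1042 on all 6 arrays.

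The Ku subunits parted. XRCC5 (probeset 16890574) read 745 and 760 in control cells, 249 and 315 under NU7441 and 626 and 523 after knockdown. Its NU7441 arrays lay far below every other array, at 37.5% of the control mean. The log2 fold change was −1.43 ± 0.14 (moderated SE, n = 2 per group; 95% interval −1.75 to −1.10; adjusted p = 0.000564), and 3.25% of all genes had a lower one. XRCC6 (probeset 16930678), which encodes the other subunit of the ring, read 1041 and 1034 in control, 887 and 910 under NU7441 and 1042 and 997 after knockdown. Its NU7441 arrays were also the lowest, with no overlap, but the mean remained at 86.6% of control. That difference was −0.21 ± 0.08 with an adjusted p of 0.0718, close to the median of all genes. XRCC6 was called lower in the quantile-normalized fit (−0.28, adjusted p = 0.0279) and when dim genes were removed (adjusted p = 0.04999), and its value was 0.11 with median centring.

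Within an array the ratio of XRCC5 to XRCC6 does not depend on a scale factor of the array. On the log2 scale and relative to the control mean, the ratio was −0.02 and 0.02 in control cells, −1.37 and −1.07 in NU7441 cells and −0.27 and −0.47 in knockdown cells. The 3 groups did not overlap, with NU7441 the lowest. The mean difference from control was −1.22 under NU7441 (SD 0.21 over its arrays, n = 2) and −0.37 after knockdown (SD 0.14, n = 2), against an SD of 0.03 in control. An exact two-sided permutation test of 2 arrays against 2 gave p = 0.333 for each, which is the smallest p this design allows, and 0.333 again when adjusted over the 2 tests. Ku protein was not measured.

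**Figure D2:**
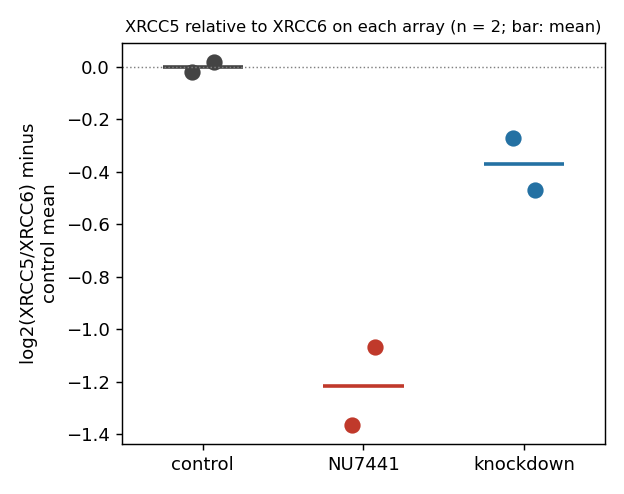
Log2 ratio of XRCC5 to XRCC6 intensity on each array minus the control mean (vertical axis), by group, with points for arrays and a bar for the mean of 2. The NU7441 arrays sit at −1.37 and −1.07 and the knockdown arrays at −0.27 and −0.47, both below control.

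The end processing and ligation genes fell to between 47.1% and 53.9% of control. DCLRE1C (probeset 16712001), the Artemis nuclease, read 51.7 and 52.1 in control, 19.1 and 29.7 under NU7441 and 31.2 and 45.1 after knockdown. The control arrays were all but identical and stood above the other 4, and the lowest NU7441 array was close to the floor. The log2 fold change under NU7441 was −1.12 ± 0.29 (adjusted p = 0.0184), and it was −2.24 when the lowest intensity of the table was subtracted first. XRCC4 (probeset 16986895), the partner of the ligase, read 97.8 and 94.4 in control, 44.3 and 59.4 under NU7441 and 105 and 93.7 after knockdown. Here the NU7441 arrays alone were low, and the knockdown arrays spanned those of control. The fold change was −0.91 ± 0.23 (adjusted p = 0.0165). TDP1 (probeset 16787364), the enzyme that clears 3′ ends, read 209 and 227 in control, 105 and 115 under NU7441 and 134 and 149 after knockdown. All 4 treated arrays lay below control, with a tight pair in each group. TDP1 fell by 0.99 ± 0.18 on the log2 scale (adjusted p = 0.00419).

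The genes that protect ends did not move alike. RIF1 (probeset 16886503) read 120 and 118 in control, 37.8 and 57.9 under NU7441 and 80.7 and 88.9 after knockdown. The 3 groups did not overlap, and the NU7441 mean was 40.3% of control. Its log2 fold change was −1.34 ± 0.25 (adjusted p = 0.00515). TP53BP1 (probeset 16808109), the protein upstream of RIF1 at breaks, read 212 and 196 in control, 236 and 175 under NU7441 and 171 and 167 after knockdown. The NU7441 arrays lay on either side of the control arrays. Its fold change was −0.00 ± 0.19 with a 95% interval from −0.42 to 0.41, so a change of either sign within that interval is not excluded. It was 0.32 with median centring and did not pass there either (adjusted p = 0.257).

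APLF (probeset 16880955), the Ku-binding scaffold, was dim on every array, at 28.3 and 32.5 in control, 17.0 and 24.9 under NU7441 and 20.3 and 18.5 after knockdown. Its treated arrays were all below control and close to the lowest deposited intensity. The log2 fold change was −0.56 ± 0.21 (adjusted p = 0.0713) as deposited, −0.25 after quantile normalization and −1.77 with the lowest intensity subtracted, so the size of its difference depended on the scale. In all, the NU7441 arrays lay below both control arrays for 7 of 8 genes, against 47.3% of all genes.

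**Figure D3:**
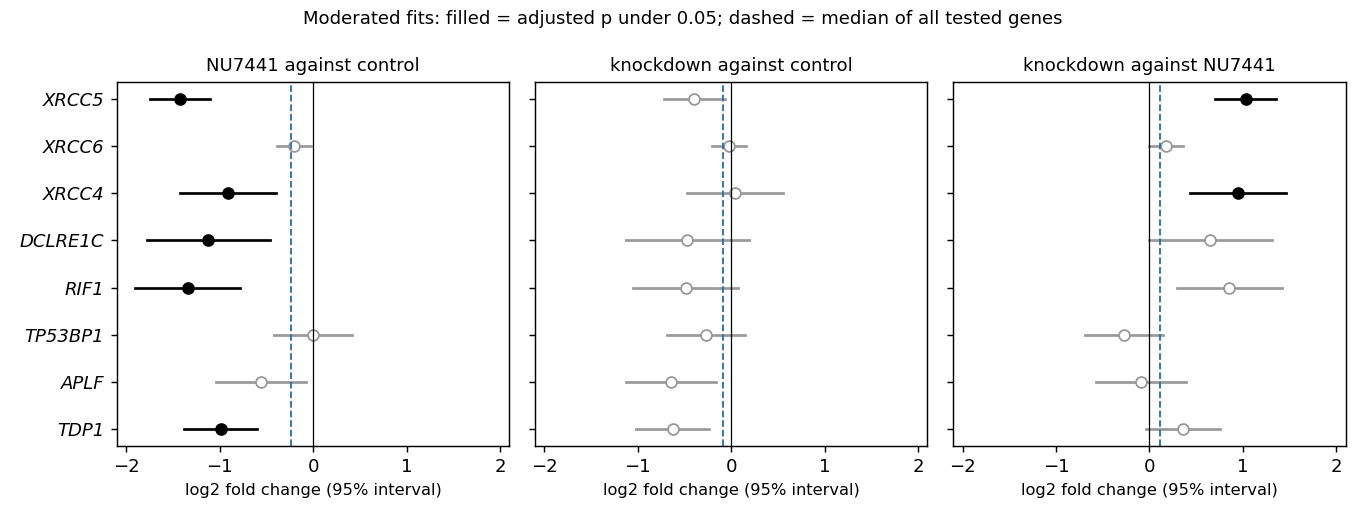
Log2 fold change (horizontal axis) with its 95% interval for each gene in the 3 comparisons, with filled points for an adjusted p under 0.05 and a dashed line at the median of all tested genes. In the NU7441 panel 5 genes are filled and lie left of the dashed line at −0.23, in the knockdown panel none is, and between the treatments XRCC5 and XRCC4 are.

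The calls under NU7441 depended on scaling for XRCC6, XRCC4 and DCLRE1C, and on both control arrays for every called gene but XRCC5. The share of lower genes among all calls was 67.4% on the deposited scale, 49.0% on quantile-normalized values and 32.1% on median-centred ones. Quantile normalization kept the 5 calls and added XRCC6, against 13.8% of all genes called lower. With median centring XRCC5 (−1.11), RIF1 (−1.03) and TDP1 (−0.67) passed, whereas DCLRE1C (−0.80, adjusted p = 0.0570) and XRCC4 (−0.59, adjusted p = 0.0713) did not. In that fit 9.54% of all genes were called lower. Without control replicate 1 the log2 fold changes were −1.44 for XRCC5, −1.33 for RIF1, −1.05 for TDP1, −1.13 for DCLRE1C and −0.88 for XRCC4. Without control replicate 2 they were −1.41, −1.36, −0.93, −1.12 and −0.93 for the same genes in that order. XRCC5 alone kept its call in these fits. Each of those fits left 1 control array and called far fewer of all genes, so the lost calls are not read as a result about these genes. XRCC5 passed in all 16 alternative settings run, with values from −1.59 to −1.11.

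**Figure D4:**
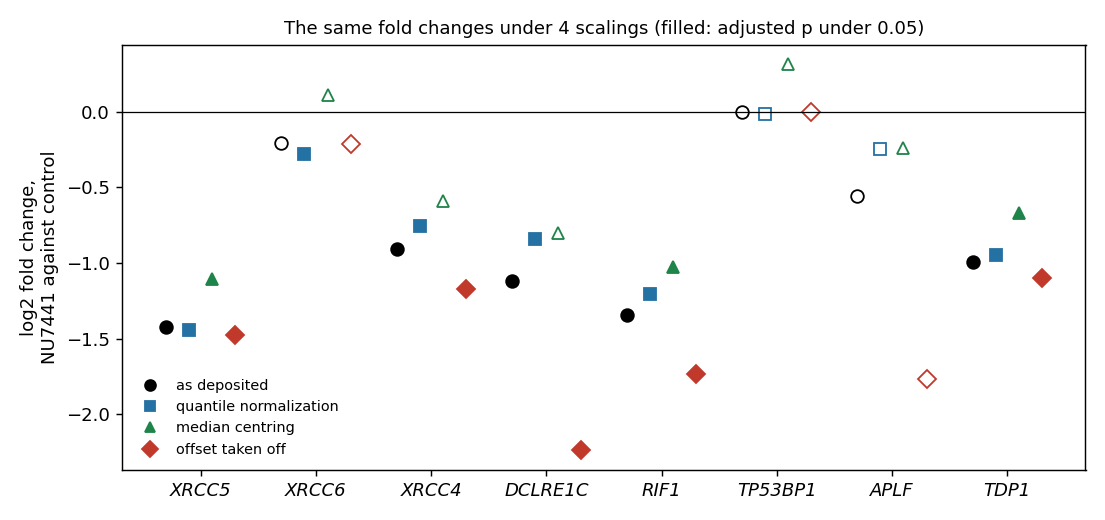
Log2 fold change of NU7441 against control (vertical axis) for each gene under 4 scalings of the same intensities, with filled symbols for an adjusted p under 0.05. XRCC5, RIF1 and TDP1 are filled under every scaling shown, and DCLRE1C and APLF move most when the lowest intensity is taken off.

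Knockdown against control asked how the genes respond to loss of the protein, with the same 2 control arrays as the NU7441 comparison. In the fit over all 6 arrays 0 of 8 genes passed in either direction, with 3 (XRCC5, APLF and TDP1) lower at an unadjusted p under 0.05, as were 12.9% of all genes. After adjustment, of all genes 0.486% were called lower and 0.284% higher, a lower share of 63.2% among calls that was 18.4% with median centring. TDP1 was at −0.63 ± 0.18 (95% interval −1.02 to −0.23; adjusted p = 0.103), APLF at −0.64 ± 0.21 (adjusted p = 0.153) and XRCC5 at −0.40 ± 0.14 (adjusted p = 0.184). RIF1 was at −0.49 ± 0.25 and DCLRE1C at −0.47 ± 0.29, the latter with its knockdown arrays 31.2 and 45.1 wide apart. TP53BP1 was at −0.27 ± 0.19. XRCC4 was at 0.04 ± 0.23 and XRCC6 at −0.03 ± 0.08, each with overlapping arrays, and XRCC6 was at 0.15 with median centring. The median over the 8 genes was −0.43, and −0.09 over all genes. Both knockdown arrays lay below both control arrays for 6 of 8 genes, against 38.2% of all genes.

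The number of calls after knockdown turned on whether the more variable NU7441 arrays shared the estimate of spread. With the control and knockdown arrays alone in the fit, 4 genes were lower: TDP1 (adjusted p = 0.00361), XRCC5 (0.0119), APLF (0.0169) and RIF1 (0.0307). In that fit 2843 genes were called and 12.3% of all genes were lower, against 114 calls with all arrays. With limma's array weights TDP1, XRCC5 and APLF passed (adjusted p = 0.00732, 0.0161 and 0.0118), against 12.0% of all genes lower in that fit. Leaving out NU7441 replicate 1 or NU7441 replicate 2 gave the same 4 genes as the control and knockdown arrays alone, with adjusted p from 0.00415 to 0.0392, against 12.3% and 12.1% of all genes lower. Under either of the other scalings, and with the lowest intensity taken off, 0 genes passed.

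Knockdown against NU7441 tested the difference between the treatments directly, which also differ in time and transfection. XRCC5 was 2.04-fold higher after knockdown than under NU7441 (log2 1.03 ± 0.14, adjusted p = 0.00550), and XRCC4 was 1.93-fold higher (0.95 ± 0.23, adjusted p = 0.0360). So 2 of 8 genes were higher and 0 lower, against 5.83% and 2.84% of all genes. Lower genes were 32.8% of all calls here, 43.7% after quantile normalization and 59.4% with median centring. RIF1 was at 0.86 ± 0.25 (adjusted p = 0.0640), DCLRE1C at 0.65 ± 0.29 (0.180) and TDP1 at 0.36 ± 0.18 (0.211). XRCC6 was at 0.18 ± 0.08, APLF at −0.09 ± 0.21 and TP53BP1 at −0.27 ± 0.19. The knockdown arrays lay above both NU7441 arrays for 6 of 8 genes, against 32.9% of all genes, and TP53BP1 was the gene with both below.

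The difference in XRCC4 was the less firm of these calls. It missed the threshold with the compared groups alone (adjusted p = 0.123), with array weights (0.0516), with the replicate block (0.0524) and without control replicate 1 (0.123) or control replicate 2 (0.123). Without knockdown replicate 1 or knockdown replicate 2 neither gene passed, in fits where next to no gene at all was called. The log2 fold changes there were 0.90 and 1.16 for XRCC5 and 0.87 and 1.03 for XRCC4. Without NU7441 replicate 2, 6 genes passed: XRCC5, XRCC4, RIF1, DCLRE1C and TDP1 were higher after knockdown and TP53BP1 lower, against 23.1% of all genes higher and 11.4% lower in that fit.

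Other genes of break repair were read from lists drawn up by role. Of 11 further core end joining genes 1 was measured, CYREN, a small regulator of end joining, which was 0.70 ± 0.21 higher under NU7441 (adjusted p = 0.0321). Its intensities were 102 and 108 in control, 185 and 157 under NU7441 and 120 and 166 after knockdown, so the NU7441 arrays were above control; without control replicate 1 or control replicate 2 it missed the threshold (0.66 and 0.74). Of 8 measured genes of break sensing and the 53BP1 arm, 4 fell and 1 rose under NU7441, against 22.4% and 10.8% of all genes, with a list median of −0.57. RAD50, a subunit of the complex that tethers ends, fell by 1.62 ± 0.22, and its partner MRE11, a nuclease, fell by 1.10 ± 0.24. NBN, the other member of that complex, was at 0.30 ± 0.18 (adjusted p = 0.205). NUDT16L1 (TIRR), which binds TP53BP1 away from breaks, rose by 0.53 ± 0.18 (adjusted p = 0.0468), a call that was lost in 10 of the 16 other settings, with adjusted p from 0.0534 to 0.235.

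Genes of competing routes and relatives are read against the same 22.4% of all genes called lower under NU7441. Of 5 measured genes that favour or follow resection 3 fell, with a list median of −1.02: the nuclease EXO1 (−2.24 ± 0.34), the nuclease-helicase DNA2 (−1.28 ± 0.25) and the deubiquitinase USP1. BARD1, the partner of BRCA1, was at 0.15 ± 0.11, and RNF169, which competes with 53BP1 for chromatin, at −0.39 ± 0.25. Of 4 alternative end joining genes FEN1 (−0.83 ± 0.10) and PARP1 (−0.49 ± 0.12) fell, while HMCES (−0.58 ± 0.30) and XRCC1 (−0.39 ± 0.21) did not pass. Of 6 relatives of the end joining genes SASS6, a centriole protein with an XRCC4-like fold (−1.39 ± 0.33), and DCLRE1B, the Apollo nuclease related to Artemis (−0.78 ± 0.18), fell, whereas RAG2 (−0.19 ± 0.27) and TDP2 (−0.04 ± 0.35) did not pass. With median centring PARP1 (adjusted p = 0.335) and DCLRE1B (0.0782) no longer passed, and PARP1 was also lost without the trend (0.0584). Without control replicate 1 or control replicate 2, RAD50, EXO1 and FEN1 still passed, whereas MRE11, DNA2, USP1, SASS6, PARP1 and DCLRE1B did not. Each of those fits left 1 control array and called far fewer of all genes, so these losses are not read as a result about the lists. After knockdown 0 genes of these lists passed limma's test over all arrays. Between the treatments RAD50, MDC1, EXO1 and USP1 were higher after knockdown, against 5.83% of all genes. They were 2 of 8 measured genes of break sensing and the 53BP1 arm and 2 of 5 resection genes. Of the alternative end joining genes 0 of 4 passed, and of the relatives 0 of 6. Without knockdown replicate 1 or knockdown replicate 2 these 4 calls were lost, in fits where next to no gene at all was called. With median centring or with the lowest intensity taken off, 1 resection gene in place of 2 passed, against 4.19% and 4.48% of all genes higher. With quantile normalization FEN1 (limma adjusted p = 0.0407) and SASS6 (0.0397) newly passed as higher after knockdown than under NU7441. In that fit 5.37% of all genes were higher.

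Transcripts of dividing cells were read beside the end joining genes. All 12 genes of a dividing-cell list fell under NU7441 (median −1.34), against 22.4% of all genes called lower. Their summed intensity was 6331 and 6447 in control, 2517 and 2836 under NU7441 and 5344 and 5086 after knockdown. TOP2A and CCNA2 were lowest (−2.26 ± 0.26 and −1.97 ± 0.17), and PCNA (−0.86 ± 0.10) and TYMS (−0.85 ± 0.12) highest. All 12 also passed under each of the other scalings. Of all genes, 13.8% were lower with quantile normalization, 9.54% with median centring and 17.2% with the lowest intensity taken off. After knockdown 0 of the 12 passed over all arrays. With the compared groups alone 6 were lower, against 12.3% of all genes. Between the treatments 11 were higher after knockdown, against 5.83% of all genes. The part of cell division in the lower end joining transcripts was not tested, and in these cultures fewer cells of a kind and less RNA per cell cannot be told apart.

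The genes closest in pattern to the Ku subunits were found by the Euclidean distance of log2 values, centred on the control mean, over the 6 arrays and among 7405 genes brighter than the median. For XRCC5 they were MTIF2, a mitochondrial translation initiation factor (distance 0.17), OTUD6B, a deubiquitinase (0.18), and ZNF695 (0.19). MTIF2 read 240 and 244 in control, 74.3 and 102 under NU7441 and 187 and 161 after knockdown, the same order of groups as XRCC5. For XRCC6 they were MRPS7, a mitochondrial ribosomal protein (0.09), RPL26, a cytosolic ribosomal protein (0.14), and DGCR6L (0.16). MRPS7 had log2 fold changes of −0.19 under NU7441 and 0.0036 after knockdown. These are likenesses over 6 arrays and carry no test.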

How the data were processed

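RNA of 6 cultures was extracted with Trizol, amplified as cDNA and read on GeneChip Human Gene 2.0 ST arrays, per the labels' protocols. The authors deposited 1 linear intensity per probeset and array; how they were summarised and normalized is not given in the sources used here. Of 44629 probesets 15835 had 1 gene symbol, and all 15835 gene identifiers matched the GRCh38.p14 gene table with 0 symbols changed. The brightest probeset by mean log2 value stood for each of 14812 genes (651 had several). No filter or scaling was applied, and 0 columns belonged to no sample.

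Log2 values were fitted with limma 3.58.1 in R 4.3.3, with all 6 arrays in 1 model (residual degrees of freedom 3), a mean-variance trend and two-sided tests at an adjusted p of 0.05; the fit was tested on simulated data. SEs are moderated. The genes and lists were chosen with earlier results of these data known. Named are the 8 genes, and of each list the 2 lowest and 2 highest under NU7441, as well as the 3 nearest patterns of each Ku gene; others named were chosen after their values were seen. Same-numbered replicates did not deviate together (r from −0.07 to −0.01).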

Additional observations from a re-analysis of the deposited data

How the results depend on the processing

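Of 378 values of single genes under 16 alternative settings, 328 kept their direction and side of the threshold, 23 newly passed, 19 no longer passed and 8 changed sign. Settings that alter only the spread, the genes tested or the averaging of probesets leave these fold changes as they were. The same holds when an array outside the comparison is left out. Direction could not change in those. The count of end joining genes called under NU7441 (5) was 3 with median centring, against 9.54% of all genes lower in that fit. The count was lower or higher when some arrays were left out. After knockdown (0) it was 4 with the compared groups alone and 3 with array weights, against 12.3% and 12.0% of all genes lower. Between the treatments (2) it was 1 with the compared groups alone, 1 with array weights and 1 with the replicate block. Of all genes 1.92%, 4.92% and 4.98% were higher in those fits. Both counts also varied when an array was left out. With dim genes left out 6 of the 8 genes were tested, without DCLRE1C and APLF. The count of 5 under NU7441 then included XRCC6, and 25.5% of the genes kept were lower. Between the treatments the count was then 3, with RIF1 newly called (limma adjusted p = 0.0476), and 12.4% of the genes kept were higher. The changes of sign were all in values that had not passed. With median centring XRCC6 was at 0.11 under NU7441 and 0.15 after knockdown, and TP53BP1 at 0.32 under NU7441. When arrays were left out, TP53BP1 under NU7441 ran from −0.22 to 0.21, XRCC6 after knockdown from −0.058 to 0.0059, XRCC4 after knockdown from −0.037 to 0.12, and APLF between the treatments from −0.36 to 0.19. The ratio of XRCC5 to XRCC6 stayed between −1.37 and −1.07 under NU7441 and between −0.47 and −0.27 after knockdown in every setting run for it. Median centring and the mean of probesets could not alter that ratio.

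Over all genes the counts moved more. With all 44629 probesets tested in place of 14812 genes they were 10300, 320 and 1957, against 4917, 114 and 1284. These counts are of unlike totals. Under NU7441 17.0% of probesets were lower and 6.07% higher, against 22.4% and 10.8% of genes. The knockdown count was also 199 with quantile normalization, 423 with median centring, 7 after the lowest intensity was subtracted, 4 without the trend, 2843 with the compared groups alone, 2663 with array weights and 37 with the replicate block. The count between the treatments was 820 without the trend and 472 with the compared groups alone. Leaving out an array gave 868 to 7845, 1 to 2884 and 0 to 5101; a group left with 1 array is assumed to vary like the others. The replicate block, whose numbers do not pair the cultures, changed 1 call among the 8 genes, that of XRCC4 between the treatments; it also ended the rise of NUDT16L1 under NU7441 (adjusted p = 0.0599) and left 1 of 2 resection genes called between the treatments. The cause of these differences was not tested. Signal close to the lowest intensity limits DCLRE1C and APLF.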
